A study of Marchantia polymorpha with 12 samples.

Results

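MpWRKY10 (gene ID Mp7g06550) is 1 of 14 genes of the liverwort Marchantia polymorpha that carry a WRKY name, and 1 of 20574 gene IDs counted in the study. It was chosen by name, as a WRKY gene whose transcript rose after wounding, so its wound response is described here and was not tested. Its level was read in 12 RNA sequencing libraries, 3 in each of 4 groups. Tak-1, a male wild-type accession, was compared with a line mutated in a pair of desaturase genes for fatty acids. The sample titles write the mutant as Mpfad3fad7, and the growth protocol writes Mpdes6fad5. Both genotypes grew on agar medium for 3 weeks and were left unwounded (mock) or wounded with tweezers, each with a treatment label of 2 h. Apical parts of the thallus without gemma cups were collected, and each library came from its own pool of 6 to 8 plants. The number of independent mutant lines behind these pools is not given in the sources used here.

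WRKY proteins are plant transcription factors named after a conserved run of amino acids in their DNA-binding domain, which is folded around a zinc ion. They bind short promoter elements called W-boxes. In flowering plants they are best known for switching defence and stress genes on or off, and several are phosphorylated by mitogen-activated protein (MAP) kinases after wounding or attack by microbes. Wounding also sets off jasmonate synthesis, which starts from polyunsaturated fatty acids made by desaturases. In Marchantia the jasmonate receptor COI1 recognises dinor-OPDA rather than the jasmonoyl-isoleucine of flowering plants.

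The libraries held 19121900 to 30821817 counts, and 13726 IDs had enough counts to be tested. A pair of wounded mutant columns shared 1 header, so these libraries have no replicate number and are called A and B. MpRBCS, a subunit of the carbon-fixing enzyme Rubisco and the green tissue gene checked, lay between 132 and 204 counts per 1000000 counts of the library (unscaled CPM) in all 12. The sperm protamine gene MpPRM was at 0 in 11 of 12 libraries and at 0.0523 unscaled CPM in the other. MpDUO1, a factor of the male germ line, was at 0.357 to 0.575 unscaled CPM in mock libraries and 2.77 to 3.42 in wounded ones. MpMID, placed on the same list, ran from 10.04 to 11.3 in mock libraries and from 11.9 to 15.2 in wounded ones. MpGCAM1, which is needed for gemma cups, was at 20.3 to 62.2 unscaled CPM in unwounded Tak-1 and 1.19 to 21.3 in the unwounded mutant. After wounding it was at 15.7 to 37.4 and 6.23 to 11.2, respectively. MpFRH1, the rhizoid gene on the list, was at 0 to 0.389 unscaled CPM in mock libraries. After wounding it was at 1.02 to 1.92 in Tak-1 and 0.418 to 0.547 in the mutant. The part of these differences in the values of MpWRKY10 was not tested.

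MpWRKY10 was detected in every unwounded library and rose steeply after wounding in both genotypes. In Tak-1 mock libraries 1, 2 and 3 it had 359, 367 and 565 counts, equal to 15.8, 17.5 and 17.6 CPM after TMM scaling of the libraries, the scale used from here on. In wounded Tak-1 libraries 1, 2 and 3 it had 6953, 7411 and 5120 counts, or 243, 318 and 225 CPM. The lowest wounded library stood far above the highest mock library, and wounded library 2 was the highest of all 12.

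In the mutant, mock libraries 1, 2 and 3 held 339, 335 and 406 counts of MpWRKY10, or 13.1, 17.7 and 16.9 CPM. Wounded mutant libraries 1, A and B held 5267, 3038 and 6689 counts, or 192, 150 and 240 CPM. Mock and wounded libraries again did not overlap. In bulk tissue, more cells with the transcript and more transcript per cell cannot be told apart.

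**Figure D1:**
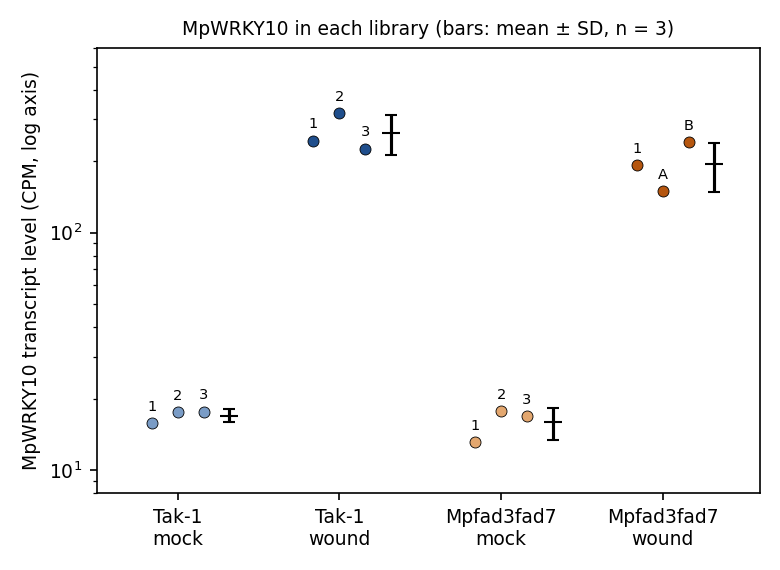
MpWRKY10 transcript level in CPM (log axis) in each of the 12 libraries by group, with replicate numbers (A and B where the column has none) and, to the right, the group mean ± SD (n = 3). The 6 wounded libraries lie between 150 and 318 CPM and the 6 mock libraries between 13.1 and 17.7 CPM, while the genotypes overlap within each treatment.

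Mean levels after wounding were 262 ± 49.2 CPM for Tak-1 and 194 ± 45.4 CPM for the mutant (SD, n = 3 each). Without wounding they were 17.0 ± 1.05 CPM for Tak-1 and 15.9 ± 2.45 CPM for the mutant. In this order of levels, the wounded groups overlapped with each other and the mock groups overlapped with each other. Counting error of the gene was 4.21 to 5.46% of its value in mock libraries and 1.16 to 1.81% in wounded ones. The spread between replicates, which includes that error, gave coefficients of variation of 6.18% and 15.4% in Tak-1 and mutant mock and 18.8% and 23.4% after wounding.

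The wounding comparison asks which transcripts respond to damage within 2 h. MpWRKY10 was 15.4-fold higher in wounded than in mock Tak-1 (log2 fold change 3.95 ± 0.19, SE) and 12.3-fold higher in the wounded mutant (3.62 ± 0.19). These values come from the contrast for which the gene was chosen and carry no test. As background, 30.0% of all tested genes were called higher after wounding in Tak-1 and 28.6% in the mutant (edgeR quasi-likelihood test, Benjamini-Hochberg adjusted p under 0.05). In the ordering of all tested genes by wound response, 2.15% stood above MpWRKY10 in Tak-1 and 2.11% in the mutant. The rise was thus in the upper tail of the transcriptome in both genotypes, though far from its extreme.

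Whether the level of MpWRKY10 depends on the desaturases was asked between genotypes. These contrasts were not the ground on which the gene was chosen, but they use the same libraries. In mock plants, where 4.52% of genes were called either way, the mutant differed from Tak-1 by -0.10 ± 0.19 on the log2 scale (95% interval -0.51 to 0.30, adjusted p = 0.828 by edgeR). Without mutant mock library 1 the sign turned, to 0.023, so no direction can be given. After wounding, where 14.5% of genes were called, the mutant was at -0.43 ± 0.16 (95% interval -0.79 to -0.08 before adjustment, adjusted p = 0.100), and of 9 pairs of a wounded mutant and a wounded Tak-1 library the mutant was higher in 1. That difference did not pass the test. It passed when the highest mutant library, B, was left out (-0.62, adjusted p = 0.0267), while over all 19 alternatives the adjusted p ran from 0.0267 to 0.417.

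The wound response of MpWRKY10 itself differed between the genotypes by -0.33 ± 0.25 (mutant minus Tak-1, 95% interval -0.87 to 0.21, adjusted p = 0.593 by edgeR). This difference was not called, while 3.29% of all genes were called in this contrast. The interval leaves room for a mutant response that is lower by up to 0.87 or higher by up to 0.21 on the log2 scale. For comparison, 1553 other genes were called at least 2-fold higher after wounding in both genotypes. Their median difference between the wounded genotypes was -0.30, with quartiles at -0.73 and 0.02, and the value of MpWRKY10 fell among these. In the difference of responses their median was -0.20, and 40.6% of them had a lower value than MpWRKY10. These genes were picked on the same libraries, so the figures only place MpWRKY10 among them.

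Single libraries of MpWRKY10 were set beside the same 1553 induced genes. In wounded Tak-1, libraries 1, 2 and 3 deviated from the group mean of MpWRKY10 by -0.09, 0.29 and -0.20 in log2 CPM, and the median deviation over the 1553 induced genes was -0.02, 0.09 and -0.07. In the wounded mutant, libraries 1, A and B deviated by 0.01, -0.35 and 0.34, against -0.09, -0.02 and 0.12 for the induced genes. Tak-1 library 2 and mutant library B were thus the highest of their groups by both measures, while the lowest mutant library was A for MpWRKY10 and 1 for the induced genes. Whether the pools differed in the extent of wounding was not tested.

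Most of the WRKY family rose with MpWRKY10. Of the 13 other WRKY genes, MpWRKY4 had 0 counts in every library, which allows at most 0.0973 to 0.157 unscaled CPM (3 counts of a library's total, counting error only), and 12 were tested. In Tak-1, 11 of the 12 were called higher and 1, MpWRKY8, lower (median log2 fold change 1.89, against 0.01 over all tested genes). In the mutant all 12 were called higher (median 1.92, against 0.02 over all tested genes). Of all tested genes, 30.0% were called higher and 25.0% lower in Tak-1, and 28.6% higher in the mutant.

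Within the family, MpWRKY10 belonged to 5 genes with responses above 3 on the log2 scale in both genotypes, and the other 8 stayed below 2.5. These cuts were not planned, and MpWRKY9 lay just under the lower one in Tak-1. Strong and moderate responders are therefore only labels for the estimates, and a gap between them was not tested. MpWRKY7 rose by 4.77 ± 0.40 in Tak-1 and 3.63 ± 0.36 in the mutant, and MpWRKY6 by 4.54 ± 0.58 and 3.56 ± 0.50. MpWRKY14 rose by 3.89 ± 0.24 and 3.39 ± 0.24, and MpWRKY3 by 3.87 ± 0.59 and 3.82 ± 0.50. The 95% interval of MpWRKY10 (3.54 to 4.35 in Tak-1, 3.21 to 4.02 in the mutant) overlapped with those of all 4, so no order among the 5 can be read.

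MpWRKY10 had the most counts of these 5 strong responders. MpWRKY3, MpWRKY6 and MpWRKY7 had 1 to 22 counts in each mock library, where MpWRKY10 had 335 or more. MpWRKY14 had 55 to 115 counts in mock libraries and 767 to 1531 in wounded ones. The SE of MpWRKY10 was smaller than those of the other 4 in both genotypes. Counts are not scaled to transcript length, so they give no order of transcript abundance between genes.

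**Figure D2:**
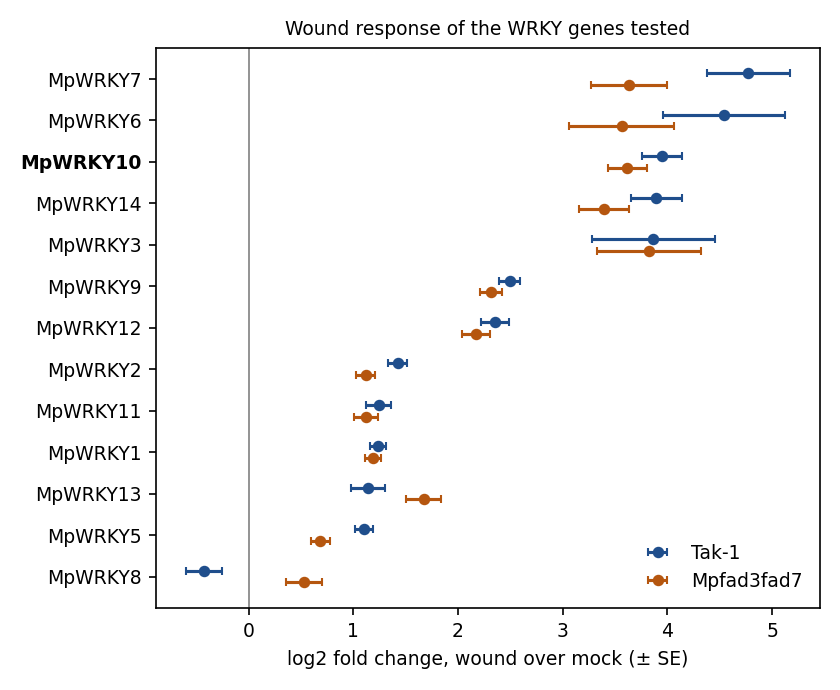
Log2 fold change of wound over mock (± SE) for the 13 WRKY genes tested, in Tak-1 and in the Mpfad3fad7 mutant, ordered by the Tak-1 value. MpWRKY10 lies with MpWRKY3, MpWRKY6, MpWRKY7 and MpWRKY14 above 3, and MpWRKY8 alone falls on either side of 0 in the 2 genotypes.

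The moderate responders were led by MpWRKY9 (2.49 ± 0.10 in Tak-1, 2.31 ± 0.10 in the mutant) and MpWRKY12 (2.35 ± 0.13 and 2.17 ± 0.14). MpWRKY2, MpWRKY11, MpWRKY1, MpWRKY13 and MpWRKY5 rose by 1.10 to 1.43 in Tak-1 and by 0.69 to 1.67 in the mutant. MpWRKY8 stood at 16.1, 16.1 and 14.8 CPM in unwounded Tak-1 and at 10.4, 14.4 and 10.2 CPM in wounded Tak-1 (log2 fold change -0.43 ± 0.17, adjusted p = 0.0487). In the mutant MpWRKY8 had 7.22, 11.8 and 10.4 CPM in mock libraries and 13.3, 14.8 and 14.2 CPM in wounded libraries 1, A and B (0.53 ± 0.17, adjusted p = 0.0205). Both MpWRKY8 calls sat close to the threshold. The Tak-1 call was lost without any 1 of Tak-1 mock libraries 1, 2 and 3, wounded Tak-1 libraries 1 and 3, mutant mock library 3 or the 3 wounded mutant libraries (adjusted p = 0.0559 to 0.154), and the mutant call without mutant mock library 1 or wounded mutant library A or B (0.0504 to 0.0766). Under upper-quartile scaling the mutant call was also lost (0.40, adjusted p = 0.0576).

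Between genotypes in mock plants, MpWRKY8 was lower in the mutant (-0.68 ± 0.17, adjusted p = 0.0445), and the other 11 were not called, beside 4.52% of all tested genes called either way. The MpWRKY8 call was lost in 9 of 12 fits that left out 1 library. In wounded plants, where 5.03% of all genes were called higher in the mutant and 9.51% lower, MpWRKY5 (-0.43 ± 0.09, adjusted p = 0.00469), MpWRKY9 (-0.39 ± 0.10, adjusted p = 0.0159) and MpWRKY2 (-0.39 ± 0.09, adjusted p = 0.0112) were lower in the mutant. These differences are close in size to the -0.43 of MpWRKY10, whose SE was larger. The MpWRKY9 call was lost without wounded mutant library 1 or A (0.0560 and 0.0612), and the MpWRKY2 call without wounded mutant library 1 (0.0602). MpWRKY3 was higher in the wounded mutant (1.52 ± 0.41, adjusted p = 0.0263), a call lost without wounded Tak-1 library 2 or 3 or any 1 wounded mutant library (0.0534 to 0.0925).

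In the difference of responses, none of the 12 other WRKY genes was called by edgeR, 4 had an unadjusted p under 0.05, and DESeq2 called 2 of them. Over all 13726 tested genes edgeR called 3.29%, and 2106 had an unadjusted p under 0.05. DESeq2 called a lower response of MpWRKY5 in the mutant (-0.42, adjusted p = 0.0388, against 0.0967 in edgeR) and a higher one of MpWRKY8 (0.95, adjusted p = 0.00632, against 0.0522). Upper-quartile scaling and a fit without the low-count filter also called MpWRKY8. Of the 12 estimates, 10 were below 0, as was that of MpWRKY10. The 1553 genes induced in both genotypes also leaned below 0 (median -0.20, quartiles -0.61 and 0.14), so this direction is not particular to WRKY genes. Over all tested genes the median was -0.004.

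Genes with a profile like that of MpWRKY10 were ranked by Pearson's r of log2 CPM over the 12 libraries. Because all these libraries share the contrast of mock and wound, high values were common: 2267 of 13725 other tested genes (16.5%) had r of at least 0.9, and 185 (1.35%) at least 0.99. The closest of all was MpMADS1 (r = 0.999), named for the MADS-box transcription factors. Unwounded Tak-1 held 33.3, 32.8 and 37.3 CPM of it, and wounded Tak-1 held 202, 251 and 203 CPM. The unwounded mutant held 29.6, 34.1 and 34.8 CPM, and wounded mutant libraries 1, A and B held 171, 161 and 211 CPM. As in MpWRKY10, wounded Tak-1 library 2 was its highest and mutant library A the lowest of the wounded libraries.

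Next among genes with a symbol came MpWRKY1 (0.998), MpMCA-I (0.997), MpMPK1 (0.996), MpGRAS4 (0.996) and MpABC86 (0.996). The closest genes without a symbol were Mp3g24240, Mp6g03270 and Mp5g13390, each with r = 0.998. The likeness was also present within groups: over deviations of the 12 libraries from their group means, r with MpWRKY10 was 0.916 for MpMADS1, 0.944 for Mp3g24240 and 0.574, the lowest of the 9, for MpGRAS4. Libraries are shared by all genes and the 9 were picked for likeness, so these r values are descriptions. By Spearman's rho the most similar genes with a symbol were all different ones, so the ranking holds for Pearson's r only.

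The likeness was one of shape and not of size. MpMPK1, a MAP kinase, went up in Tak-1 from 300.1 ± 3.93 to 531 ± 38.5 CPM, and in the mutant from 291 ± 10.05 to 503 ± 24.6 CPM (log2 fold change 0.82 ± 0.06 and 0.79 ± 0.06). MpGRAS4, of the GRAS family of transcriptional regulators, rose by 3.63 ± 0.12 in Tak-1 and 3.19 ± 0.12 in the mutant, close to the values of MpWRKY10. MpGRAS4 was called lower in the wounded mutant than in wounded Tak-1 (-0.48 ± 0.11, adjusted p = 0.00919), a call lost without wounded mutant library 1 (0.0524). That estimate is close to the -0.43 ± 0.16 of MpWRKY10, and the 2 genes were not tested against each other.

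**Figure D3:**
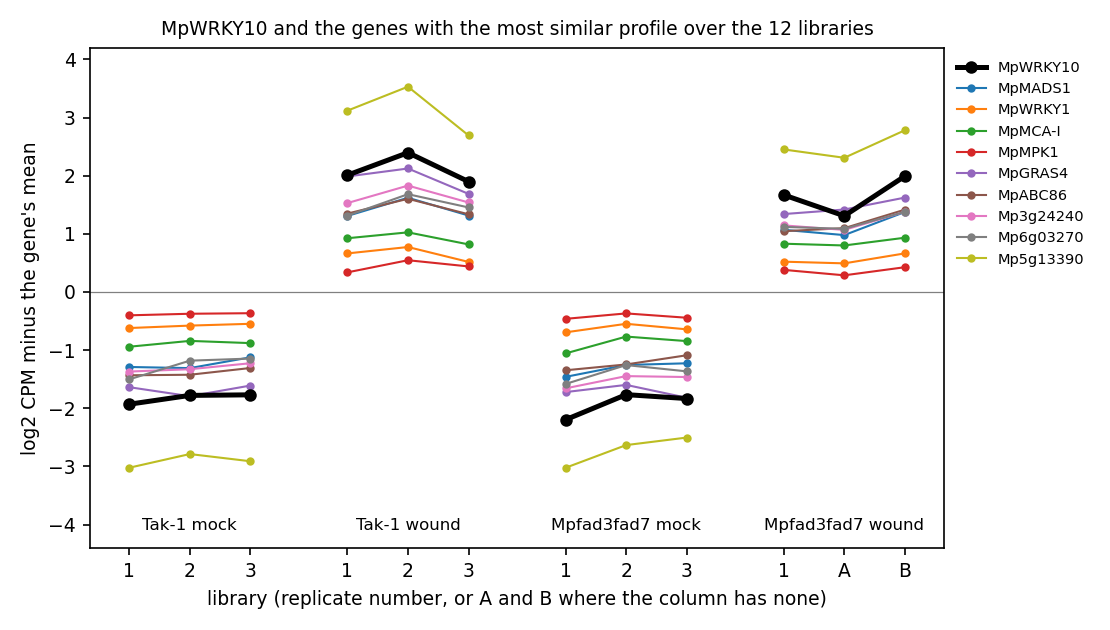
Log2 CPM minus each gene's own mean over the 12 libraries, for MpWRKY10 (thick black line) and the 9 genes with the most similar profile; lines join libraries of the same group. Wounded Tak-1 library 2 is the highest wounded library of MpWRKY10, and the span from mock to wound ranges from 0.82 (MpMPK1) to 6.08 (Mp5g13390) in Tak-1 on the log2 scale.

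MAP kinase cascades, in which a MAPKKK activates a MKK and this a MAP kinase, act upstream of several WRKY proteins in Arabidopsis. Of 29 cascade genes tested, 16 were higher, 6 lower and 7 not called after wounding in Tak-1 (median 0.21), and 17, 6 and 6 in the mutant (median 0.23). Of all tested genes, 54.9% and 51.1% were called either way. By direction, 30.0% were higher and 25.0% lower in Tak-1, and 28.6% and 22.6% in the mutant. MpMAPKKK10 rose by 3.39 ± 0.21 in Tak-1 and 2.01 ± 0.20 in the mutant, MpMAPKKK6 by 1.91 ± 0.47 and 1.51 ± 0.51, and MpMKK3 by 1.48 ± 0.09 and 0.61 ± 0.09. MpMAPKKK16 rose by 1.46 ± 0.08 in Tak-1 and 1.44 ± 0.09 in the mutant. The mutant call of MpMAPKKK6 (adjusted p = 0.0257) was lost without mutant mock library 1 or 2 or wounded mutant library A or B (0.0660 to 0.104). In the difference of responses, 2 of the 29 cascade genes, MpMAPKKK10 and MpMKK3, were called lower in the mutant and 0 higher. Over all tested genes 2.59% were called lower in that contrast. MpMKK3 went from 36.1 ± 3.13 to 101 ± 9.34 CPM in Tak-1 and from 35.3 ± 0.574 to 54.04 ± 4.95 CPM in the mutant (difference -0.86 ± 0.13, adjusted p = 0.00253).

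The jasmonate list was drawn by symbol, and most of its 23 tested genes are lipoxygenases (LOX), so its counts mainly describe that family. The others are MpCOI1, MpJAZ, MpNINJA, MpTPL and genes named CYP74 or CYP94. In wounded Tak-1, 12 of the 23 were higher, 5 lower and 6 not called (median 0.79), and in the mutant 13, 5 and 5 (median 0.99). Of all tested genes, 30.0% were higher and 25.0% lower in Tak-1, and 28.6% and 22.6% in the mutant. The largest changes in Tak-1 were those of MpCYP94-like (5.45 ± 0.22), named after the P450 family that oxidises jasmonates in flowering plants, and of the lipoxygenases MpLOX4 (4.99 ± 0.29) and MpLOX1 (4.29 ± 0.31). In the mutant they were those of MpLOX1 (4.27 ± 0.31), MpCYP94-like (3.83 ± 0.23) and MpLOX6 (3.61 ± 0.58). In the difference of responses, 7 of these 23 genes were called lower in the mutant and none higher. The share of all tested genes called lower was 2.59%. In the same contrast edgeR called neither MpWRKY10 nor any of the 12 other WRKY genes, beside 3.29% of all genes called either way. At that share, the lack of a call among 12 genes says little about the WRKY family, and DESeq2 called 2 of them. The 2 lists were not tested against each other.

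The reference gene table places MpWRKY10 on chromosome 7, and the 3 genes on either side of it did not share 1 response. After wounding 4 of these 6 neighbours were called higher and 1 lower in each genotype, where 54.9% of all tested genes were called either way in Tak-1 and 51.1% in the mutant. Mp7g06560, next to MpWRKY10 on 1 side, rose by 0.96 ± 0.09 in Tak-1 and 0.93 ± 0.09 in the mutant, and Mp7g06540, on the other side, by 0.51 ± 0.15 and 0.44 ± 0.15. Mp7g06580 rose by 2.08 ± 0.47 and 1.58 ± 0.51 at no more than 37 counts in any library. MpMDHAR3, named as a monodehydroascorbate reductase, an enzyme that regenerates ascorbate, fell by 1.61 ± 0.12 in Tak-1 and fell by 2.22 ± 0.12 in the mutant, and Mp7g06570 was not called (-0.10 ± 0.09 and -0.15 ± 0.09). Under upper-quartile scaling, which put the median response of all genes at -0.19 in Tak-1 and -0.12 in the mutant, Mp7g06540 lost both calls and Mp7g06570 was called lower in both genotypes. The Mp7g06540 call was also lost in Tak-1 without wounded library 1 (adjusted p = 0.0587), and in the mutant without mock library 2 or 3 or any 1 wounded mutant library (0.0501 to 0.0895). The Mp7g06580 call in the mutant was lost without mock library 1 (0.0796) or wounded mutant library B (0.0575).

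The second gene on the side of Mp7g06540 responded as strongly as MpWRKY10 in Tak-1 and much less in the mutant. Mp7g06530, which has no symbol in the table, stood at 31.4, 49.1 and 38.1 CPM in unwounded Tak-1 and at 718, 569 and 599 CPM in wounded Tak-1. In the unwounded mutant it stood at 48.2, 23.9 and 24.9 CPM, and at 122, 112 and 151 CPM in libraries 1, A and B of the wounded mutant. All wounded mutant libraries were below all wounded Tak-1 libraries. Tak-1 responded to wounding with 3.99 ± 0.26 and the mutant with 1.98 ± 0.24, a difference of -2.01 ± 0.34 (adjusted p = 0.00581), whereas that of MpWRKY10, -0.33 ± 0.25, was not called. The difference between these 2 genes was not itself tested.

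**Figure D4:**
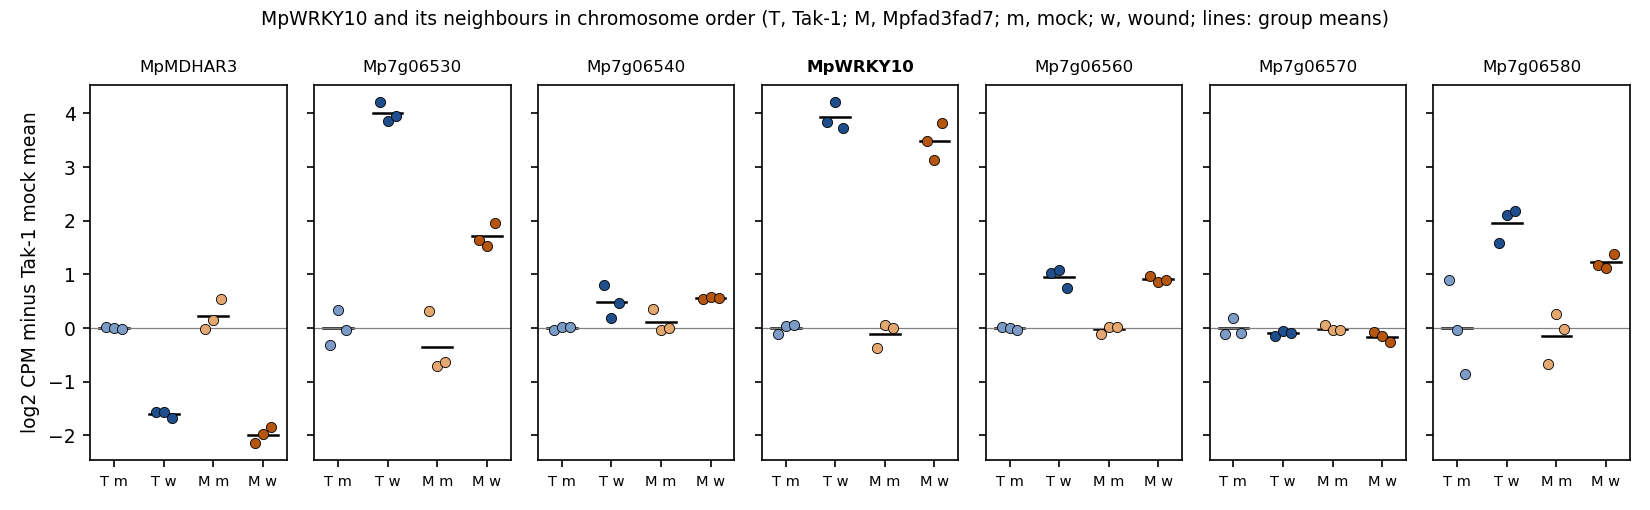
Log2 CPM of each library minus the gene's mean in Tak-1 mock, for MpWRKY10 and the 3 genes on either side in chromosome order (points, libraries; lines, group means; spacing not to scale). MpWRKY10 is high in both wounded groups, Mp7g06530 is high in wounded Tak-1 and intermediate in the wounded mutant, and MpMDHAR3 is lower after wounding.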

How the data were processed

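RNA of 12 libraries was sequenced. The authors deposited raw counts per gene ID, 1 column per library and not normalised as far as the values show. The submitters' processing notes name Trim Galore, HISAT2, HTSeq and edgeR. The sources used here give no settings, genome build, annotation or strandedness, so reads of overlapping or antisense genes cannot be told apart. Columns were assigned to groups by their headers.

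Symbols and gene order came from the MpTak2_v7.1 gene table of RefSeq, matched by locus tag (17641 of 20574 IDs; 2538 of 13726 tested IDs have a symbol). No genome or sequence table was used here.

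Counts were analysed in R 4.3.3 with edgeR 4.0.16: filterByExpr by group, TMM scaling, and quasi-likelihood fits of all 12 libraries with a mean for each group (8 residual degrees of freedom), tested two-sided in 5 contrasts. Adjusted p-values are Benjamini-Hochberg over all tested genes, and a gene was called under 0.05. The SE is the absolute log2 fold change over the square root of F. Log2 CPM used a prior count of 2. The fit was tested on simulated data. Alternatives were upper-quartile and RLE scaling, DESeq2 1.42.0, no filter, only the groups compared, leaving out each library, a replicate block, Spearman's rho and a prior count of 0.5; the 10 numbered libraries without a block were added after seeing the data. Floors of 3 counts cover counting error only. Intervals of log2 fold changes were set from the SE, so they include the spread between libraries. Libraries are separate pools of plants per the labels' protocols; p-values measure the spread between these pools.

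MpWRKY10 and the gene lists (WRKY, MAP kinase cascade, jasmonate, by symbol) were chosen with earlier results of these data known. Named genes are all WRKY genes, the 6 genes with and 3 without a symbol of highest r with MpWRKY10, 3 neighbours on either side, and the 3 largest called changes of each other list in each wounding contrast.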

Additional observations from a re-analysis of the deposited data

Results flagged for a closer look

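The wound response differed between the genotypes, by the test of the difference itself (mutant minus Tak-1, edgeR), in 5 of the named genes. In this contrast 3.29% of all tested genes were called. MpMAPKKK10, MpMKK3, MpCYP94-like and MpLOX4 were named for large wound responses in the same libraries, MpMKK3 and MpLOX4 by their Tak-1 response only. The Tak-1 response enters the difference with a minus sign, so that choice favours negative values. Mp7g06530, separated from MpWRKY10 on the chromosome by Mp7g06540, had -2.01 ± 0.34 (adjusted p = 0.00581). Its level in 3 of 3 wounded mutant libraries was lower than in any wounded Tak-1 library. In the MAP kinase list, MpMAPKKK10 had -1.37 ± 0.28 (adjusted p = 0.0176, or 0.0527 when Tak-1 mock library 1 was left out), and MpMKK3 had -0.86 ± 0.13 (adjusted p = 0.00253). Among jasmonate genes, MpCYP94-like had -1.62 ± 0.35 (adjusted p = 0.0257). That call was lost on leaving out any 1 of mutant mock libraries 1 and 2, wounded mutant library 1 and Tak-1 mock library 3 (0.0522 to 0.0912). MpLOX4 had -1.57 ± 0.38 (adjusted p = 0.0429), lost in 9 of 12 fits without 1 library (0.0506 to 0.110).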

How the results depend on the processing

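MpWRKY10 stayed higher after wounding in all 19 alternatives run, at 3.75 to 4.04 on the log2 scale in Tak-1 and 3.43 to 3.77 in the mutant. Its mock difference between genotypes ran from -0.18 to 0.023 when 1 library was left out, and the value of 0.023 (without mutant mock library 1) has the opposite sign; its difference after wounding ran from -0.62 to -0.27 and was called at -0.62 (without wounded mutant library B). The cause was not tested. DESeq2 called 1034 genes between genotypes in mock, against 620, 805 in the difference of responses, against 451, and 2 WRKY genes there. Upper-quartile scaling and no filter each called 1 WRKY gene there. Upper-quartile scaling changed the split of higher and lower calls from 4112 and 3427 to 3122 and 5504 for wounding in Tak-1, from 3919 and 3100 to 3180 and 4595 in the mutant, from 691 and 1305 to 1263 and 1151 between wounded genotypes, and from 95 and 356 to 164 and 293 in the difference of responses. A fit of only the groups compared called 210 genes and 0 WRKY genes in mock. With 1 library left out, all-gene calls ran from 138 to 727 in mock, 1153 to 2287 between wounded genotypes and 261 to 480 in the difference of responses; WRKY calls ran from 0 to 1, 1 to 6 and 0 to 1, and 3 to 6 of the 6 most similar genes were kept. By Spearman's rho 0 of these 6 were kept.

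Deviations of same-numbered libraries from their group means correlated at -0.14 to 0.19. Differently numbered libraries were not compared, so these values cannot decide whether the replicate numbers mark a shared batch. With the replicate block, over the 10 numbered libraries, MpWRKY10 was at 3.91 and 3.74 after wounding and -0.27 between wounded genotypes (adjusted p = 0.417). The block called 4104 genes and 12 MAP kinase cascade genes for wounding in the mutant, 190 genes and 0 WRKY genes in mock, 704 and 0 between wounded genotypes, and 219 genes in the difference of responses. Of the differences of responses called without it, the block left Mp7g06530 at -2.21 (adjusted p = 0.0591), MpMAPKKK10 at -1.52 (0.0858), MpCYP94-like at -1.58 (0.140) and MpLOX4 at -1.67 (0.178), and MpGRAS4 between wounded genotypes at -0.61 (0.0739), none of them called. The same 10 libraries without a block, an alternative chosen after seeing the data, called 4667 genes for wounding in the mutant, 304 genes and 0 WRKY genes in mock, 876 and 0 between wounded genotypes, and 252 genes in the difference of responses. In both of these fits the wounded mutant group has 1 library, assumed to vary like the other groups. Depth limits MpWRKY3, MpWRKY6, MpWRKY7 and Mp7g06580, which have few counts in mock libraries. It also limits MpMAPKKK6 and MpCYP94-like, with mock group means of 0.234 to 0.842 CPM, and MpLOX6 in the mutant (0.222 CPM in mock).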

Other observations

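The strong WRKY responders differed in which wounded Tak-1 library was highest. MpWRKY10 was highest of the wounded Tak-1 libraries in library 2, at 318 CPM, while MpWRKY14 was highest in library 1, at 53.5 CPM against 49.3 and 37.8 in libraries 2 and 3. MpWRKY3, MpWRKY6 and MpWRKY7 were also highest in wounded Tak-1 library 1, at 4.44, 6.33 and 9.09 CPM against at most 2.24, 3.77 and 5.98 CPM in the other two. In the wounded mutant, MpWRKY6, MpWRKY7, MpWRKY10 and MpWRKY14 were highest in library B and MpWRKY3 in library A, at 10.2 CPM.

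The count table lists a further ID on the side of Mp7g06530, Mp7g06520, which the reference table does not hold and which was looked at after its values were seen. It had 1 count in Tak-1 mock library 1 and 0 in the other mock libraries, against 60, 32 and 36 counts in wounded Tak-1 libraries and 29, 14 and 37 in wounded mutant libraries 1, A and B.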
